A study of Mus musculus with 7 samples.

Results

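The BCL2 family genes Bcl2, Bcl2l1, Mcl1, Bcl2l11, Bid, Bad, Bmf, Pmaip1, Bax and Bak1 were followed in RNA sequencing libraries of mouse T-cells. The 10 genes were picked by name from the 25033 genes that each library lists, and all 10 were found. Their values were not used for the choice, but earlier results of these data were known. The donors were 4 ORP4L KI mice and 3 littermates of the wild type (WT), each sequenced as a single library. All mice were C57BL/6J and 15 months old by the labels. ORP4L KI mice carry the coding sequence of human ORP4L, an oxysterol-binding protein related to OSBP, in the Rosa26 locus behind a stop cassette flanked by loxP sites. A Cre transgene under the Lck promoter, which is active in T-cells, removes the cassette. Per the study the ORP4L KI mice were moribund when sampled, so the genotype and the disease state cannot be told apart. T-cells were taken from peripheral blood mononuclear cells or splenocytes, and neither the labels nor the methods tie a library to either source. A kit for naive CD4+ cells and culture after isolation are described as well, but whether they were used for these libraries is not given in the sources used here. The study asked how ORP4L alters signalling, survival and malignant change of T-cells, and these 10 genes bear on survival.

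BCL2 family proteins decide whether the outer membrane of the mitochondrion stays intact. Pro-survival members (BCL2, BCL-XL from Bcl2l1, and MCL1) hold the effectors BAX and BAK in check. BH3-only members (BIM from Bcl2l11, BID, BAD, BMF, and NOXA from Pmaip1) bind the groove of the pro-survival proteins through a short helix, the BH3 region, or activate the effectors directly. Once active, BAX and BAK open pores through which cytochrome c leaves the mitochondrion, and caspases are switched on. In T-cells, BIM is known for the removal of activated and self-reactive cells, BCL2 for the upkeep of naive cells, and MCL1 for survival at most stages of the lineage.

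Through the BH3 stretch the BH3-only proteins bind the groove of the pro-survival proteins. This stretch is shown because the members share it and how far it has diverged differs from gene to gene. It was read from the GENCODE M21 transcripts of GRCm38, the assembly that mm10 stands for, by a search of each coding sequence for a pattern of 6 residues: a leucine, any 3 residues, a glycine, alanine or serine, and an aspartate. In 9 of the genes the coding sequence held the pattern exactly 1 time, and in Pmaip1 it held it 2 times. The pattern is loose, since 34.4% of 20434 mouse coding sequences hold it (7036). Each line gives 30 bases in reading direction, 2 codons on either side of the pattern included, with the leucine and aspartate codons in capitals. No sequence is shown for Pmaip1.
Bcl2 (chr1:106712578-106712607, minus strand, exon 1 of 2): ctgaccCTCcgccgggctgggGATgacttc
Bcl2l1 (chr2:152829700-152829729, minus strand, exon 2 of 3): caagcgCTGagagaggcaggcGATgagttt
Mcl1 (chr3:95659430-95659459, plus strand, exon 1 of 3): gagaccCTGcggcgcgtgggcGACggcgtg
Bcl2l11 (chr2:128147144-128147173, plus strand, exon 3 of 4): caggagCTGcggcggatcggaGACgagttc
Bid (chr6:120897292-120897321, minus strand, exon 4 of 6): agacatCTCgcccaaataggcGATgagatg
Bad (chr19:6950786-6950815, plus strand, exon 3 of 4): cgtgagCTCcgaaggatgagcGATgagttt
Bmf (chr2:118545103-118545132, minus strand, exon 4 of 5): agaaagCTTcagtgtattgcaGACcagttc
Bax (chr7:45466000-45466029, minus strand, exon 3 of 6): gagtgtCTCcggcgaattggaGATgaactg
Bak1 (chr17:27022534-27022563, minus strand, exon 4 of 6): cggcagCTTgctctcatcggaGATgatatt

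Over these 30 bases the pair most alike was Bcl2l11 and Bad, with 20 identical bases, and the pair least alike was Bcl2l1 and Bmf, with 11. The stretch lay inside a single exon in all 9 genes. Because the deposited values merge the splice variants of a gene, the long and short forms of Bcl2l1, which have opposite effects on survival, and the isoforms of Bcl2l11 were not told apart.

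Several features of the libraries bear on every value below. Total counts ranged from 12918187 to 15912921 in WT and from 16757959 to 19665679 in ORP4L KI. As a check of the genotype, reads of Osbp2, which encodes ORP4L in the mouse, numbered 0, 0 and 1 in WT and between 155 and 742 in ORP4L KI. The introduced sequence is human, so its reads are counted only as far as they were assigned to mouse Osbp2. All 14 T-cell markers were detected, and their summed CPM (counts scaled to library size, by TMM) spanned 2772 to 4005 in WT and 1839 to 5119 in ORP4L KI. Among them Cd4 measured 256.6 to 360.0 CPM in WT and 93.4 to 414.5 CPM in ORP4L KI. Cd8b1, of CD8 T-cells, measured 80.2 to 135.1 CPM in WT and 51.3 to 204.4 CPM in ORP4L KI. Markers of granulocytes were higher in ORP4L KI, with 14 of 14 past an unadjusted p of 0.01 and a fold change of 2. Their sum was 1794 to 4920 CPM in WT and 143400, 10210, 30540 and 52670 CPM in ORP4L KI replicates 1 to 4. Dendritic cell markers summed to 515.3 to 774.2 CPM in WT and 147.4 to 272.0 CPM in ORP4L KI, and proliferation markers to 274.8 to 493.0 CPM and 623.0 to 1417 CPM. Of 12 monocyte and macrophage markers, Csf1r, Adgre1, Cd68 and Mertk were lower in all ORP4L KI mice and Ly6c2 was higher, and of 8 NK cell markers 5 were lower in all and 2 higher, although the sums of both lists overlapped between the groups. B-cell and platelet sums overlapped too, erythroid sums did not (9811 to 18530 CPM in WT, 1073 to 8549 CPM in ORP4L KI), and no marker list had a gene at 0 in every library. The part of these cells in the results was not tested. Xist and Ddx3y, which mark female and male cells, put 1 of 3 WT and 2 of 4 ORP4L KI mice as female. In RNA from bulk cells, fewer cells of a type and less RNA per cell cannot be told apart.

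No member of the family differed between ORP4L KI and WT T-cells beyond the spread between mice. All 10 members passed the filter on low counts, with between 91 counts (Bmf in ORP4L KI replicate 2) and 19956 counts (Mcl1 in ORP4L KI replicate 1). With edgeR's quasi-likelihood test, 0 of 10 members reached an adjusted p under 0.05, against 0.0223% of the 13462 genes tested, a rule that hardly any gene met. At an unadjusted p under 0.01 with a log2 fold change above 1 in size, 0 of 10 were called, against 4.68% of all genes. At an unadjusted p under 0.05 alone, 0 of 10 passed, against 13.7% of all genes (6.85% higher and 6.86% lower in ORP4L KI). In 0 of 10 did all ORP4L KI libraries lie on one side of all WT libraries, against 13.8% of all genes (6.43% higher and 7.38% lower). DESeq2's Wald test also called 0 of 10 under each of these rules on p. Read against these backgrounds, a count of 0 among 10 genes is not a result particular to the members. The median log2 fold change of the 10 members was 0.04, beside 0.01 over all genes tested, with 7 above 0 and 3 below.

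**Figure D1:**
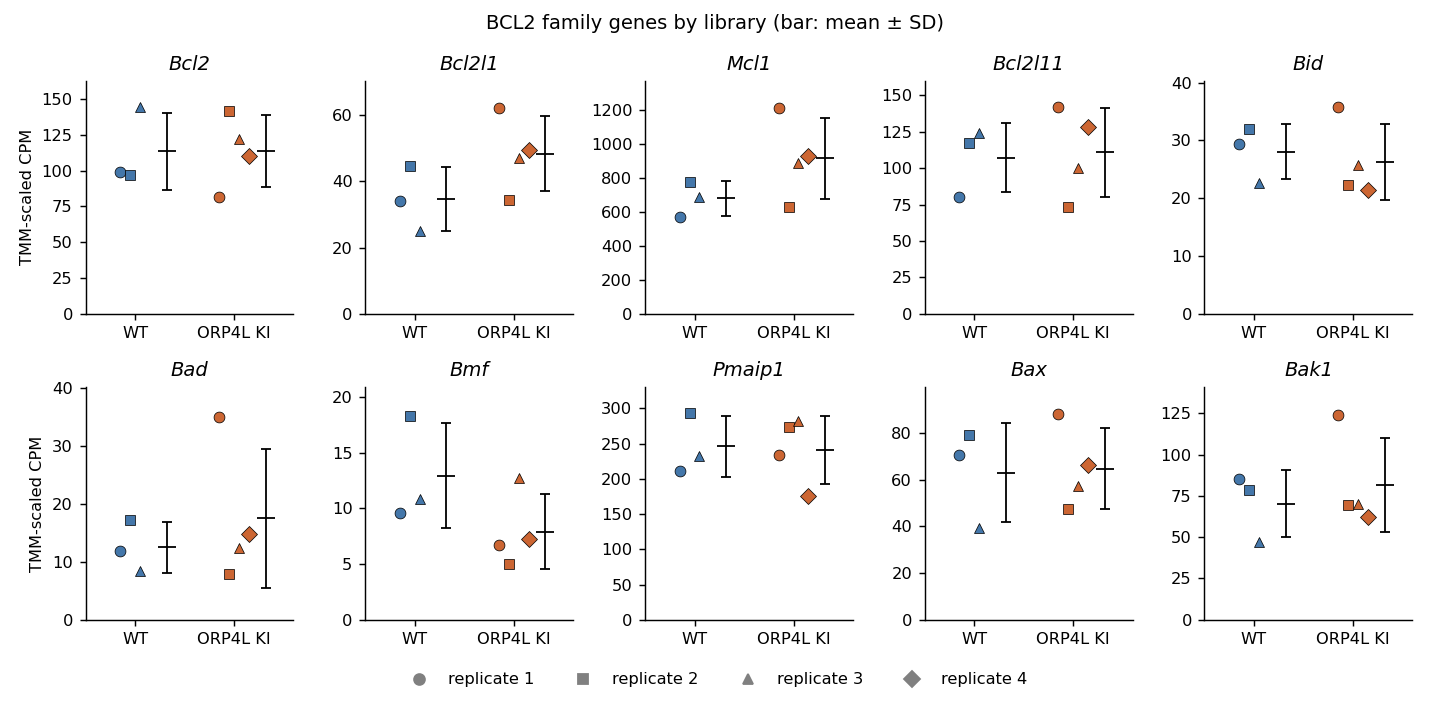
TMM-scaled CPM of each of the 10 genes in every library (blue, 3 WT; orange, 4 ORP4L KI; symbol, replicate number), with the mean ± SD of each group as a bar and every axis starting at 0. The groups overlap in all 10 panels, and on this scale ORP4L KI replicate 1 is the highest of the 7 libraries in 7 of them.

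Among the pro-survival members, the means of Bcl2 were nearly equal, and Bcl2l1 and Mcl1 stood somewhat higher in most ORP4L KI mice without passing any threshold. Bcl2, the founding member and guardian of resting lymphocytes, measured 99.0, 97.0 and 144.7 CPM in WT replicates 1 to 3 and 81.9, 141.5, 121.9 and 109.9 CPM in ORP4L KI replicates 1 to 4. The means were 113.6 ± 27.0 CPM (SD, n = 3) in WT and 113.8 ± 24.9 CPM (SD, n = 4) in ORP4L KI. Its highest library was WT replicate 3 and its lowest ORP4L KI replicate 1, so each group held an end of the range. The log2 fold change was 0.003 with an SE of 0.24 (edgeR, adjusted p = 0.997), and its 95% interval ran from a fold of 0.688 to 1.46.

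Bcl2l1 encodes BCL-XL, which is raised in T-cells by co-stimulation. It measured 34.2, 44.7 and 25.1 CPM in WT and 62.1, 34.4, 47.2 and 49.6 CPM in ORP4L KI, with means of 34.7 ± 9.79 CPM (SD, n = 3) and 48.3 ± 11.4 CPM (SD, n = 4). In 3 of the 4 ORP4L KI mice the value lay above every WT mouse, and ORP4L KI replicate 2 lay level with WT replicate 1. The log2 fold change was 0.48 with an SE of 0.26 (edgeR, adjusted p = 0.487), and the interval of the fold ran from 0.924 to 2.1.

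Mcl1, whose short-lived product is turned over within hours by the proteasome, measured 571.3, 776.3 and 690.9 CPM in WT and 1215, 631.8, 887.2 and 928.3 CPM in ORP4L KI. Means were 679.5 ± 102.9 CPM (SD, n = 3) and 915.5 ± 238.8 CPM (SD, n = 4). The picture was that of Bcl2l1: 3 ORP4L KI mice lay above all WT mice and replicate 2 lay among them. The log2 fold change was 0.43 with an SE of 0.26 (edgeR, adjusted p = 0.541), for an interval of the fold from 0.898 to 2.02. Left out in turn, no library brought Mcl1 or Bcl2l1 past a call threshold. Without ORP4L KI replicate 2 both fell under an unadjusted p of 0.05 with log2 fold changes of 0.56 for Mcl1 and 0.60 for Bcl2l1, and Bcl2l1 did so without WT replicate 2 as well, at 0.70.

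The BH3-only members showed no common direction, with 2 of 5 fold changes above 0 and 3 below. Bcl2l11, whose product BIM binds all pro-survival proteins, measured 80.2, 117.3 and 124.4 CPM in WT (107.3 ± 23.8, SD, n = 3) and 141.9, 73.3, 100.1 and 128.0 CPM in ORP4L KI (110.8 ± 30.5, SD, n = 4). Both the highest and the lowest value came from ORP4L KI mice. This gave a log2 fold change of 0.05 with an SE of 0.27 (edgeR, adjusted p = 0.964). Bid, which links the death receptors to mitochondria once caspase-8 has cut its product, measured 29.4, 31.95 and 22.7 CPM in WT (28.0 ± 4.78, SD, n = 3) and 35.8, 22.2, 25.7 and 21.5 CPM in ORP4L KI (26.3 ± 6.61, SD, n = 4). Again the ORP4L KI mice held both ends of the range. Its log2 fold change was -0.09 with an SE of 0.24 (edgeR, adjusted p = 0.922).

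Bad, whose product is kept inactive when AKT and other kinases phosphorylate it, was the most uneven of the 10 within ORP4L KI. It measured 11.9, 17.2 and 8.50 CPM in WT (12.5 ± 4.37, SD, n = 3) and 35.1, 7.997, 12.5 and 14.7 CPM in ORP4L KI (17.6 ± 12.0, SD, n = 4). ORP4L KI replicate 1 alone stood above the WT range, and replicate 2 stood below it, for a 4.38-fold span within the ORP4L KI group against 2.02-fold in WT. Between the groups the log2 fold change was 0.49 with an SE of 0.48 (edgeR, adjusted p = 0.75), and it was -0.09 without ORP4L KI replicate 1. Its interval, a fold of 0.666 to 2.95, was the widest of the 10.

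Bmf, which encodes a BH3-only protein tied to the dynein light chain of the cytoskeleton, held the lowest count of any library and the fold change of largest size. Its values were 9.57, 18.3 and 10.9 CPM in WT (12.9 ± 4.71, SD, n = 3) and 6.70, 4.98, 12.8 and 7.28 CPM in ORP4L KI (7.93 ± 3.36, SD, n = 4). In 3 of the 4 ORP4L KI mice Bmf lay below every WT mouse, while replicate 3 lay inside the WT range. In the fit the log2 fold change was -0.70 with an SE of 0.36 (edgeR, adjusted p = 0.45), an interval of the fold from 0.349 to 1.08. Without ORP4L KI replicate 3 it was -1.0, under an unadjusted p of 0.05 but over 0.01, and without WT replicate 2 it was -0.37.

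Pmaip1 encodes NOXA, which pairs with MCL1 and speeds its breakdown. It measured 210.4, 294.0 and 233.0 CPM in WT (245.8 ± 43.2, SD, n = 3) and 233.1, 273.1, 282.1 and 175.7 CPM in ORP4L KI (241.0 ± 48.5, SD, n = 4). Only ORP4L KI replicate 4 lay outside the WT range, below it. By genotype the log2 fold change was -0.03 with an SE of 0.23 (edgeR, adjusted p = 0.976), with a fold interval from 0.686 to 1.4.

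The effectors BAX and BAK, which form the pores, had fold changes of small size. Bax measured 70.8, 79.2 and 39.2 CPM in WT (63.1 ± 21.1, SD, n = 3) and 88.1, 47.5, 57.3 and 66.1 CPM in ORP4L KI (64.8 ± 17.3, SD, n = 4). Its log2 fold change was 0.04 with an SE of 0.29 (edgeR, adjusted p = 0.975), and it was -0.15 without ORP4L KI replicate 1 and -0.21 without WT replicate 3. Bak1 measured 85.2, 78.5 and 47.2 CPM in WT (70.3 ± 20.3, SD, n = 3) and 124.1, 69.6, 70.1 and 62.2 CPM in ORP4L KI (81.5 ± 28.6, SD, n = 4). By CPM, WT replicate 3 was the lowest of the 7 libraries for both effectors and ORP4L KI replicate 1 the highest for both. The log2 fold change of Bak1 was 0.21 with an SE of 0.30 (edgeR, adjusted p = 0.839), and without ORP4L KI replicate 1 it was -0.06. The other 3 ORP4L KI mice lay between 62.2 and 70.1 CPM for this gene.

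**Figure D2:**
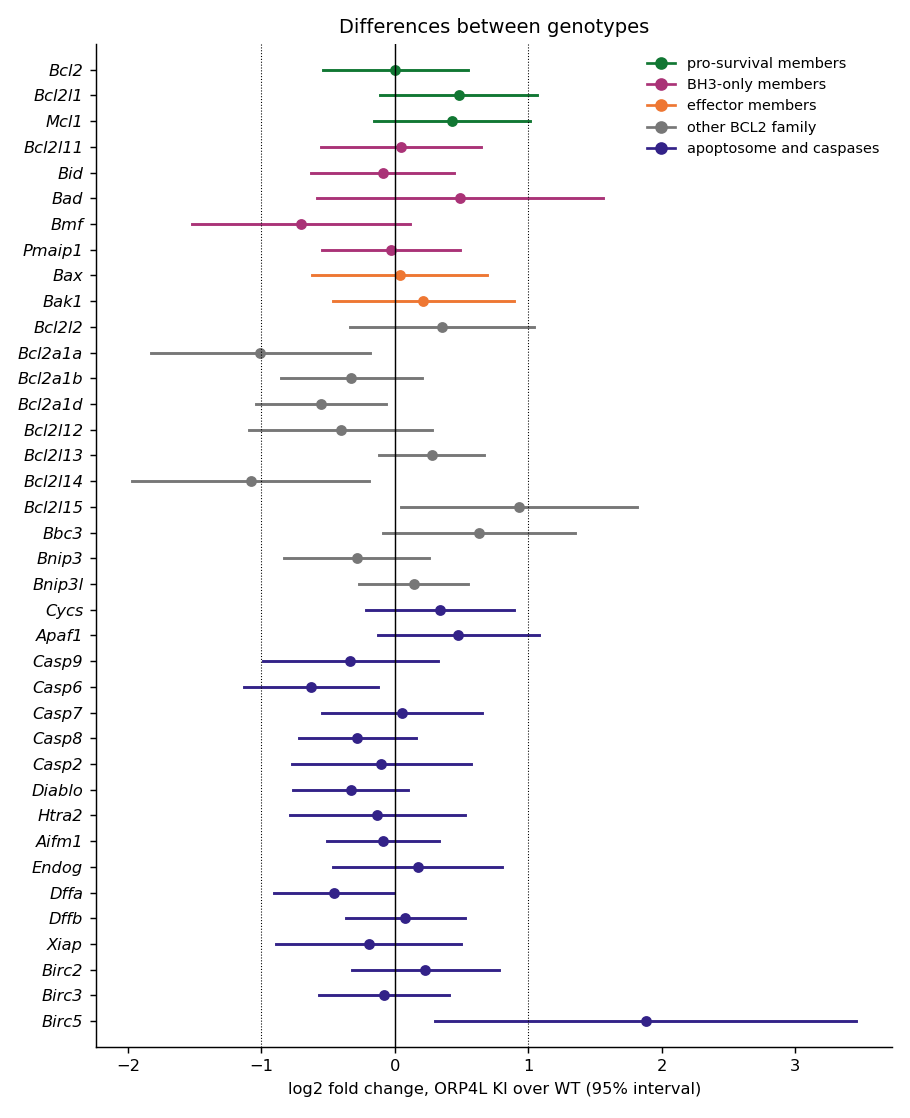
Log2 fold change (ORP4L KI over WT) of the 10 members and of the tested genes of 2 related lists, with the 95% interval as a line; dotted lines mark a log2 fold change of 1 in size. The intervals of all 10 members cross 0, and those of Bad, Bmf, Bcl2l1 and Mcl1 also reach past a dotted line.

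How large a difference these libraries leave room for varied by gene. The 95% interval of the log2 fold change lay inside -1 to 1 for 6 of the 10 members (Bcl2, Bcl2l11, Bid, Pmaip1, Bax and Bak1), or 60.0%, beside 54.0% of all genes tested. For these 6 genes a doubling or halving between the groups lay outside the interval. For Bcl2l1, Mcl1 and Bad the interval took in a rise of 2-fold, and for Bmf a fall of that size, so changes of that size stayed within what 7 mice allow. Even Bmf had at least 91 counts in each library. When counts were thinned to the smallest library, 0 of 10 members were again called.

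Per length of transcript, Mcl1 was the most abundant member. The deposited RPKM divides reads by the length of the longest transcript and by the library total, so levels can be set side by side between genes. A gene expressed mainly as shorter forms comes out too low on this scale, and the forms were not told apart. The median RPKM over the 7 libraries was 222.2 for Mcl1 (177.2 to 290.4), 96.7 for Pmaip1 (60.9 to 112.0) and 70.0 for Bax (49.7 to 91.0). Mcl1 was separated from Pmaip1 with no overlap of libraries, while Pmaip1 and Bax overlapped, Pmaip1 being the higher in 4 of 7. Bak1 followed at 37.4 (25.7 to 51.2), below Bax in 7 of 7 libraries although their ranges overlapped, then Bcl2l1 at 30.8 (19.1 to 35.7) and Bcl2l11 at 23.3 (15.8 to 27.2). Each of these overlapped with the next, as did Bcl2 at 14.9 (9.47 to 22.1), Bid at 13.5 (10.4 to 16.8) and Bad at 8.80 (5.97 to 20.1). Bmf was the lowest at 2.25 (1.18 to 3.98) and overlapped with none of the others. Bcl2 has a long transcript (7209 bases as given in the files, against 869 for Bax), so it lies above Bax by mean CPM in both groups and below it per length.

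**Figure D3:**
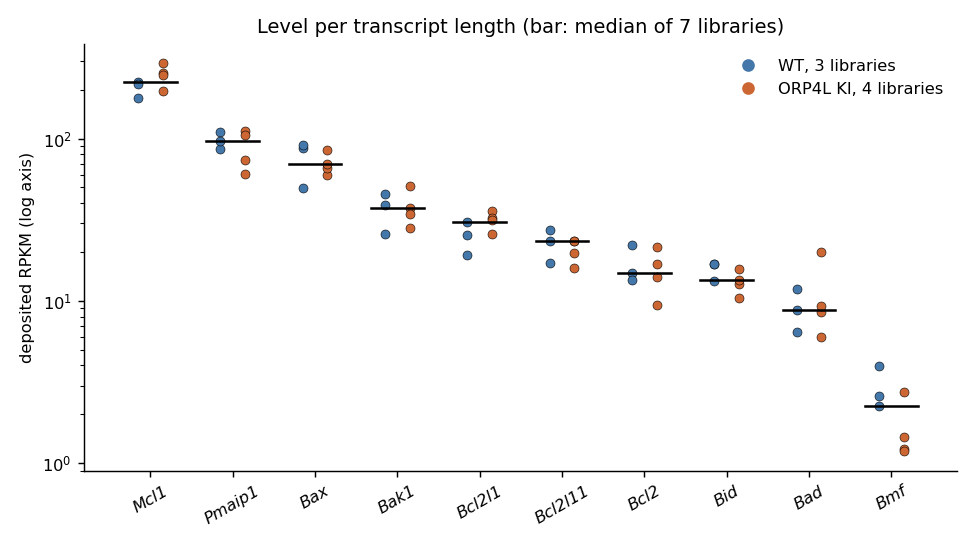
Deposited RPKM on a log axis for each gene in each library (blue, 3 WT; orange, 4 ORP4L KI), ordered by the median of the 7 libraries, which is drawn as a bar. Mcl1 stands apart at the top, at 177.2 or more in every library, and Bmf at the bottom, at 3.98 or less.

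The order was nearly the same in both genotypes. By group medians it differed only where Bcl2 and Bid meet: in WT the median RPKM was 16.8 for Bid and 14.9 for Bcl2, and in ORP4L KI it was 13.1 for Bid and 15.4 for Bcl2. These neighbours overlapped in both groups. Summed over the 10 members the RPKM came to 508.0 ± 46.9 (SD, n = 3) in WT and 535.0 ± 54.9 (SD, n = 4) in ORP4L KI. The pro-survival members made up 45.1%, 47.4% and 53.9% of that sum in WT and 55.5%, 50.0%, 54.7% and 58.8% in ORP4L KI, with 3 of the 4 ORP4L KI mice above all WT mice and replicate 2 between them. Most of this was Mcl1 alone, at 40.6% ± 4.4 (SD, n = 3) and 45.9% ± 4.06 (SD, n = 4). BH3-only members took 29.0% ± 1.72 and 25.2% ± 4.24, and the effectors 22.2% ± 6.05 and 20.1% ± 1.77. These shares are descriptions, and no test was made on them.

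The balance between the transcripts of binding partners was read as ratios of RPKM within a library, which leave out differences in library size. Protein was not measured in these libraries, so the ratios do not give the balance of the proteins. Bcl2 to Bcl2l11, a pair often read together as a measure of how close a lymphocyte stands to death, was 0.863, 0.577 and 0.813 in WT and 0.403, 1.35, 0.851 and 0.600 in ORP4L KI. The ORP4L KI mice held both ends, a 0.403 in replicate 1 and a 1.35 in replicate 2. Bcl2 to Bax was 0.254 ± 0.166 (SD, n = 3) in WT, where replicate 3 reached 0.445, and 0.232 ± 0.103 (SD, n = 4) in ORP4L KI. Mcl1 to Pmaip1, the genes of a pro-survival protein and of the BH3-only protein that targets it, was 2.07, 2.01 and 2.26 in WT and 3.97, 1.76, 2.39 and 4.02 in ORP4L KI. The WT mice lay close together here, 3 ORP4L KI mice lay above them and replicate 2 below. Mcl1 to Bcl2 was 12.8 ± 3.42 (SD, n = 3) and 18.1 ± 9.06 (SD, n = 4), and Bcl2l1 to Bad was 2.83 ± 0.187 (SD, n = 3) and 3.32 ± 1.1 (SD, n = 4). All 5 ratios overlapped between the groups.

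**Figure D4:**
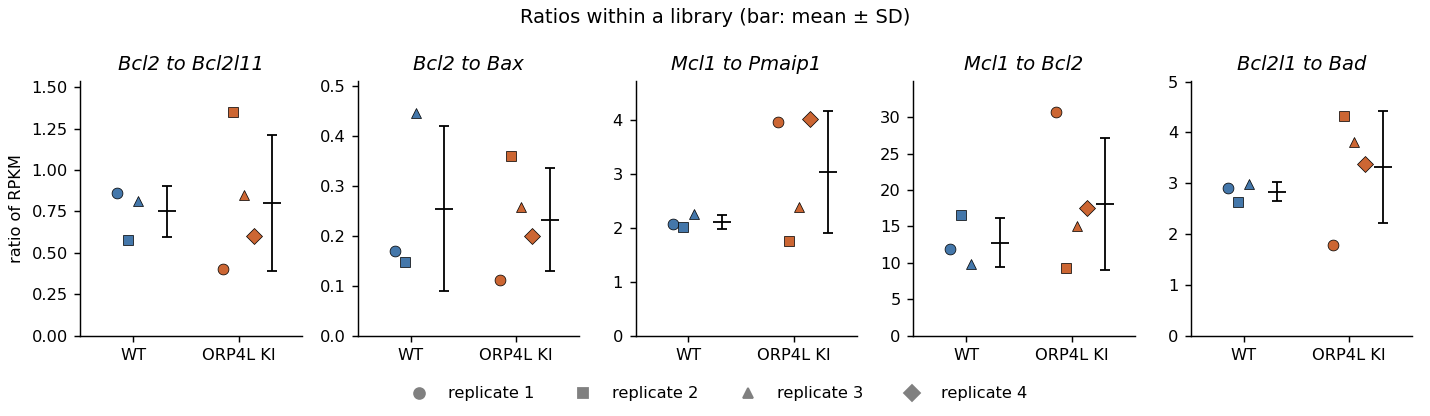
Ratio of RPKM between 2 members within each library (blue, 3 WT; orange, 4 ORP4L KI; symbol, replicate number), with the mean ± SD of each group as a bar. Every ratio overlaps between the groups, and for Mcl1 to Pmaip1 the 3 WT values lie between 2.01 and 2.26 while the ORP4L KI values run from 1.76 to 4.02.

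The members varied most visibly between 2 of the ORP4L KI mice. By CPM, ORP4L KI replicate 1 was the highest of all 7 libraries for Bcl2l1, Mcl1, Bcl2l11, Bid, Bad, Bax and Bak1. It was the lowest for Bcl2. ORP4L KI replicate 2 was the lowest of its group for 6 members. From replicate 2 to replicate 1 the log2 difference was 2.13 for Bad, 0.95 for Bcl2l11, 0.94 for Mcl1, 0.89 for Bax, 0.85 for Bcl2l1, 0.83 for Bak1, 0.69 for Bid and 0.43 for Bmf, against -0.23 for Pmaip1 and -0.79 for Bcl2. Members of all 3 roles thus stood higher in replicate 1 than in any other library by CPM, while Bcl2, Bmf and Pmaip1 did not. The share of all genes tested that were highest in this library was not counted, so the pattern cannot be read as particular to the members. By RPKM, replicate 1 remained the highest for Bcl2l1, Mcl1, Bad and Bak1 only. A WT library was then the highest for Bcl2l11 (27.19, against 23.49 in replicate 1), Bid (16.82 against 15.75) and Bax (91.0 against 84.57). On the log2 scale the span over the 4 ORP4L KI libraries exceeded the size of the group difference in 10 of 10 members and in 90.3% of all genes tested, and the span over the 3 WT libraries in 10 of 10 and in 76.1%, so wide spans were common. Within ORP4L KI these 2 libraries also held both ends of the granulocyte, T-cell, monocyte and macrophage, NK cell and proliferation sums. They did not hold both ends of the B-cell, dendritic cell, erythroid and platelet sums. Replicate 1 had the highest granulocyte sum (143400 CPM) and the lowest T-cell sum (1839 CPM), and replicate 2 had the lowest granulocyte sum (10210 CPM) and the highest T-cell sum (5119 CPM). In replicate 1 the 10 genes with most reads, led by the granulocyte gene S100a9, took 14.27% of all counts, against 5.23% to 7.96% in the other libraries. The part of RNA from granulocytes, or from the other cell types listed, in the members' values was not tested. Leaving out replicate 1, or replicate 2, left 0 of 10 members past either call threshold.

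**Figure D5:**
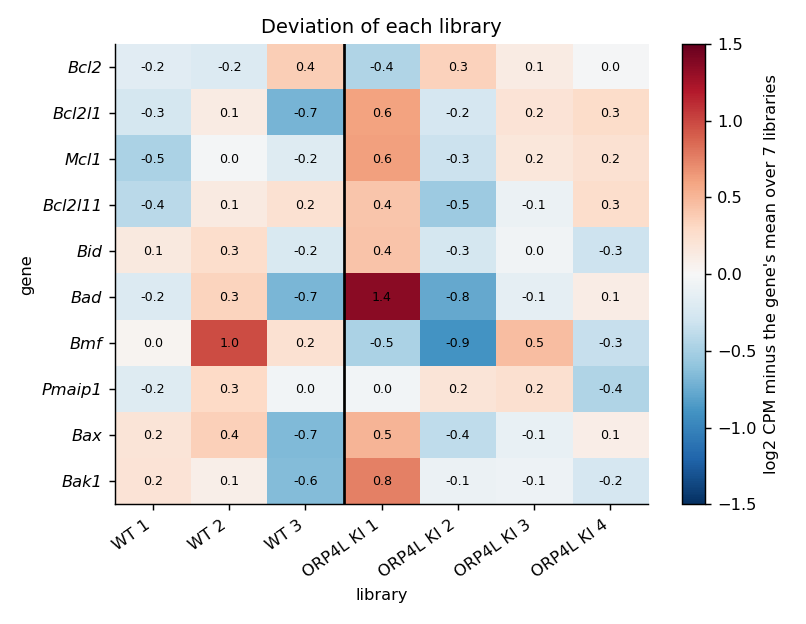
Log2 CPM of each gene in each library minus the gene's mean over the 7 libraries, as colour and number (red, above the mean; blue, below); a black line parts WT from ORP4L KI. ORP4L KI replicate 1 is above the mean for 7 genes by 0.41 to 1.36 and below it for Bmf (-0.47), Bcl2 (-0.45) and Pmaip1 (-0.04), and in no row are all libraries on one side of the black line above the mean and all on the other side below it.

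The remainder of the family held no gene past a call threshold. Of 16 further BCL2 family genes, 11 could be tested and Bcl2a1c, Bcl2l10, Bok, Bik and Hrk fell under the filter. At an unadjusted p under 0.05, 1 of the 11 was higher and 3 were lower in ORP4L KI, so 4 of 11 passed beside 13.7% of all genes. The median log2 fold change was -0.29, beside 0.01 over all genes. The pro-survival gene Bcl2a1d, an NF-kB target, measured 71.3, 71.2 and 43.1 CPM in WT and 37.1, 43.5, 45.6 and 42.5 CPM in ORP4L KI. Its low WT value, in replicate 3, lay among those of the ORP4L KI mice. Its log2 fold change was -0.55 with an SE of 0.22 (edgeR, adjusted p = 0.293). Its copies behaved alike in sign, with -1.01 and an SE of 0.37 for Bcl2a1a (edgeR, adjusted p = 0.251) and -0.33 and an SE of 0.23 for Bcl2a1b (edgeR, adjusted p = 0.624). The coding sequences of these 3 genes share 97.9% to 98.8% of their 516 bases, so how reads were split between them is uncertain. Bcl2l14 measured 11.4, 13.1 and 4.99 CPM in WT and 2.86 to 6.10 CPM in ORP4L KI, where WT replicate 3 again lay among the ORP4L KI mice (log2 fold change -1.08, SE 0.40; edgeR, adjusted p = 0.255). Bcl2l15 was scarce, at 0.773 to 0.880 CPM in WT and 1.12 to 2.19 CPM in ORP4L KI, without overlap (log2 fold change 0.93, SE 0.39; edgeR, adjusted p = 0.331). The groups did not overlap for 2 of the 11 genes, beside 13.8% of all genes, both higher in ORP4L KI: Bcl2l15 and Bcl2l13, the latter named after its values were seen, at 42.7 to 48.7 CPM in WT and 49.6 to 62.7 CPM in ORP4L KI.

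Downstream of the pores, all 17 genes of the list for the apoptosome and caspases were tested and none was called. At an unadjusted p under 0.05, 1 was higher and 2 were lower, beside 13.7% of all genes in either direction. The groups did not overlap for 2 of the 17 genes, both lower, beside 13.8% of all genes in either direction. The median log2 fold change was -0.09. Apaf1, whose product binds cytochrome c and assembles the apoptosome, measured 41.6, 42.1 and 51.8 CPM in WT and 94.4, 60.4, 46.1 and 50.5 CPM in ORP4L KI. In 2 of the 4 ORP4L KI mice it lay above every WT mouse, and its log2 fold change was 0.48 with an SE of 0.27 (edgeR, adjusted p = 0.495). Casp6, an executioner caspase, was lower in all 4, at 14.8 to 17.9 CPM against 18.3 to 31.2 CPM, for a log2 fold change of -0.63 with an SE of 0.22 (edgeR, adjusted p = 0.243). Dffa, which encodes the inhibitor of the nuclease that cuts DNA in dying cells, was also lower in all 4, at 11.5 to 15.2 CPM against 16.5 to 19.2 CPM (log2 fold change -0.46, SE 0.20; edgeR, adjusted p = 0.355). Birc5, the gene of survivin, which is made in dividing cells, measured 21.1, 16.4 and 6.18 CPM in WT and 130.8, 17.2, 27.6 and 39.0 CPM in ORP4L KI. Its log2 fold change was 1.88 with an SE of 0.70 (edgeR, adjusted p = 0.268), and DESeq2's Wald test called it. All 12 proliferation markers had fold changes above 0, and ORP4L KI replicate 1 had the highest Birc5 and the highest sum of these markers (1417 CPM). Birc3 (205.1 ± 25.7 CPM, SD, n = 4, against 216.8 ± 46.8 CPM, SD, n = 3) and Cycs, the gene of cytochrome c (145.1 ± 33.7 CPM against 114.5 ± 26.6 CPM), were the most abundant of the list per length and overlapped between the groups.

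Regulators of the members were likewise not called, with 16 of 16 tested and a median log2 fold change of -0.03. At an unadjusted p under 0.05, 1 was higher and 1 lower, beside 13.7% of all genes in either direction. The groups did not overlap for 1 higher and 1 lower gene, beside 13.8% of all genes in either direction. Foxo3, a transcription factor that AKT keeps out of the nucleus and that switches on Bcl2l11, measured 31.9, 39.4 and 48.3 CPM in WT and 14.9, 26.8, 29.3 and 24.6 CPM in ORP4L KI. All ORP4L KI mice lay below all WT mice, with a log2 fold change of -0.74 and an SE of 0.26 (edgeR, adjusted p = 0.237), while the means of Bcl2l11 were 107.3 and 110.8 CPM. Fbxw7, which encodes the part of a ubiquitin ligase that recognizes MCL1, was higher in all 4, at 48.0 to 72.3 CPM against 36.1 to 43.7 CPM (log2 fold change 0.50, SE 0.20; edgeR, adjusted p = 0.305). The log2 fold changes of the other regulators named by rule were 0.50 for Vdac2, the outer membrane channel that holds BAK, 0.48 for the stress factor Ddit3, -0.05 for the kinase gene Pim1 and -0.31 for Il2rg, the shared chain of the IL-2 and IL-7 receptors, all with groups that overlapped.

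The genes whose pattern over the 7 libraries was most like that of a member were looked up for Bmf and Bad, the members with the largest fold changes in size. Likeness was the root mean square difference of centred log2 CPM over the 13461 other genes tested. For Bmf the nearest were Rab7b (0.143), Atf3 (0.167) and Cttnbp2nl (0.172), beside a median of 0.684 over all genes. For Bad they were Atp6v1g1 (0.076), Ogfrl1 (0.107) and Naa38 (0.107), beside a median of 0.755. Picked as the smallest of 13461 distances, these values are small by selection, so the medians do not show how unusual they are. None of these 6 genes was called, and the log2 fold changes ran from -0.86 for Rab7b to 0.65 for Ogfrl1.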

How the data were processed

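RNA of T-cells was sequenced as mRNA libraries on an Illumina NovaSeq 6000. The authors trimmed adapters, dropped reads shorter than 17 nt, mapped the rest to mouse mRNA references with FANSe3 (version and handling of reads with several matches not given in the sources used here; build mm10 per the submitters' processing notes) and merged splice variants. The deposited files give raw read counts per gene, used for every test, and the authors' RPKM by longest transcript, used for levels and ratios.

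The tests used edgeR 4.0.16 in R 4.3.3: filterByExpr (about 10 counts, 15 in all), TMM scaling and the quasi-likelihood test of 4 ORP4L KI against 3 WT libraries without covariates, with Benjamini-Hochberg adjustment over 13462 genes. CPM are TMM-scaled. The SE is the size of the log2 fold change over the square root of F. Total counts were 12918187 to 19665679 per library, and intervals come from the fit. No pair of libraries of the same group agreed within sampling noise. The methods state an unpaired Student's test or analysis of variance for all comparisons, and nothing specific to sequencing counts.

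The members and lists were chosen with earlier results of these data known. A further gene was taken out of the lists and is not reported here. Named were all 10 members, Osbp2, per further list the genes past a threshold or else the 4 with the smallest p plus the 2 most abundant by RPKM, and the 3 genes most like each of 2 members. S100a9, Xist, Ddx3y and the individual markers of cell types are outside this rule, picked with their values in view. Alternatives were DESeq2 1.42.0's size factors and Wald test, upper-quartile and total-count scaling, no filter, 10 counts in every sample, edgeR's likelihood ratio and exact tests, a replicate block, each replicate left out and thinned counts. Sex as a covariate was added after seeing the data. Scripts were tested on simulated data. Figures were drawn with Matplotlib 3.10.9 and tables with pandas 2.3.3 in Python 3.11.15.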

Additional observations from a re-analysis of the deposited data

Results flagged for a closer look

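In 33 groups of 4 ORP4L KI values, 1 for each gene or RPKM ratio examined, the library farthest from the rest was looked for. Its gap to the nearest other library was divided by the range of all 4. The ratios reuse values of the members, so the groups are not independent. Chance alone puts about 1 in 20 groups past the limit used, or 1.65 of 33, and 1 was found. Bak1 in ORP4L KI replicate 1 stood at 124 CPM, against 62.2 to 70.1 CPM in the other ORP4L KI mice.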

How the results depend on the processing

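Under every alternative, leaving out each replicate included, 0 of 10 members passed either call threshold. The lowest adjusted p of a member under any of them was 0.218 (edgeR's quasi-likelihood test). Of 180 fold changes recomputed, 24 changed sign, 15 of them among the 70 with a replicate left out. With upper-quartile scaling the log2 fold change was -0.052 for Bcl2, -0.013 for Bcl2l11 and -0.035 for Bax, and with total counts alone -0.12, -0.13 and -0.12. It was -0.0049 for Bcl2 with 10 counts in every sample. With each replicate left out the log2 fold changes ran from -0.14 to 0.22 for Bcl2, -0.13 to 0.18 for Bcl2l11, -0.28 to 0.012 for Bid, -0.094 to 0.78 for Bad, -0.13 to 0.12 for Pmaip1, -0.21 to 0.24 for Bax and -0.064 to 0.37 for Bak1. Those of Bcl2l1 (0.29 to 0.70), Mcl1 (0.26 to 0.56) and Bmf (-1.0 to -0.37) kept their sign.

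Genes at an adjusted p under 0.05, 3 with the settings reported, numbered 44 with upper-quartile scaling, 113 with total counts, 176 without a filter, 0 with 10 counts in every sample (1549 at an unadjusted p under 0.05), 784 with DESeq2's Wald test, 706 by likelihood ratio, 682 by the exact test, 0 with sex as a covariate (1544 at an unadjusted p under 0.05) and 0 to 342 with each replicate left out, the highest without ORP4L KI replicate 2. Under the rule that asks for an unadjusted p under 0.01 with a fold change of at least 2, 630 genes became 328 to 805 with each replicate left out, the lowest without WT replicate 2. With total counts alone 275 of 682 such genes were higher, against 320 of 630, and the median of all genes moved to -0.129. Among the further lists, Birc5 passed this rule (1 gene) with the Wald, likelihood ratio and exact tests and without ORP4L KI replicate 2, and an adjusted p under 0.05 with the Wald test alone. Without WT replicate 3, Bcl2a1a and Bcl2l14 passed it, so 0 to 2 genes did with each replicate left out. The cause was not tested.

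With the replicate number as a block, ORP4L KI replicate 4 left out, 48 genes had an adjusted p under 0.05 and 466 passed the other rule, Birc5 (1 gene) among the lists, and the log2 fold change was -0.067 for Bcl2l11 and 0.1 for Pmaip1. Same-numbered libraries correlated across genes at 0.15, -0.535 and -0.002, and not every sample correlated best with its own number. With so few libraries, these values cannot settle whether the numbers pair any mice. Counts thinned to the smallest library gave 0 called members too, and the lowest count of a member in any library was 91.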

Other observations

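The order of the 7 libraries by each member was set beside their order by the summed CPM of each of the 9 marker lists, 90 pairs in all, as a description made after the values were seen. In 1 pair the order was the same throughout: Bad and the monocyte and macrophage markers, both highest in ORP4L KI replicate 1 (35.1 CPM for Bad, 8194 CPM for the markers), followed by WT replicate 2 (17.2 and 5536 CPM), ORP4L KI replicate 4 (14.7 and 5250 CPM) and replicate 3 (12.5 and 3681 CPM), WT replicate 1 (11.9 and 3429 CPM), WT replicate 3 (8.50 and 3149 CPM) and ORP4L KI replicate 2 (7.997 and 2330 CPM). The match holds for the sum and not for the list gene by gene: 0 of its 12 markers had that order singly, Lyz2 alone made up 5419 of the 8194 CPM in ORP4L KI replicate 1, and Csf1r measured 226.0 to 345.2 CPM in WT and 98.3 to 138.5 CPM in ORP4L KI. The 3 libraries lowest for Bcl2 were also those lowest for the T-cell markers: ORP4L KI replicate 1 (81.9 CPM for Bcl2, 1839 CPM for the markers), WT replicate 2 (97.0 and 2772 CPM) and WT replicate 1 (99.0 and 3658 CPM). The same 3 lowest libraries were found in 8 of the 90 pairs. The others were Bcl2l1, Mcl1 and Bad with the monocyte and macrophage markers, Bid and Bak1 with the B-cell markers, and Bmf with the dendritic cell and the erythroid markers. How often other genes share their 3 lowest libraries with a marker list was not counted, and the 90 pairs are not independent. None of these relations was tested.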
